A study of Mus musculus with 6 samples.

Results

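A set of 10 genes that report on the activity of the ERK kinases in most mammalian cells was followed through 6 RNA-seq libraries of mouse embryonic stem (mES) cells. They were chosen by name for their role, with earlier results of these data known, and make up 10 of the 16668 genes listed in every library. Dusp6 and Dusp4 encode phosphatases that act on ERK, Spry2 and Spry4 encode sprouty proteins, Etv4 and Etv5 encode ETS transcription factors, and Egr1, Fos, Ier3 and Myc are immediate early genes. All 10 were detected in all 6 libraries, and 9 averaged 0.5 RPKM or more and were tested. RPKM is the number of reads on a gene's exons, scaled for exon length and for the mapped reads of the library, so that levels can be compared between genes. Egr1, with a mean of 0.372 RPKM, fell under this limit.

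The cells were E14 mES cells of strain 129/Ola at passage 3-5, a single feeder-independent line. The cells of all 6 libraries had gelatin-coated dishes and N2B27 medium with PD0325901 at 1 µM, CHIR99021 at 3 µM and LIF at 1000 U/ml. PD0325901 inhibits the kinase MEK, which activates ERK, and CHIR99021 inhibits GSK3. The 3 groups of 2 libraries were labelled control (wild type), Ring1B-KD and Dzip3-KD, where KD is transient knockdown by siRNA of an H2A ubiquitin ligase, Ring1B (gene Rnf2) or Dzip3. The methods of the study name a control siRNA beside the targeted ones, so wild type need not mean untransfected. The deposited lists are numbered 1 to 6 in their names, and each name also carries a condition word. By label, files 1 and 2 are control, files 3 and 4 are Ring1B-KD and files 5 and 6 are Dzip3-KD, each pair being replicates 1 and 2 in that order. From file 1 to file 6 the words were control, Ring1BKD, Dzip3KD, control, Ring1BKD and Dzip3KD, so that label and word named different conditions for 4 of the 6 libraries. Values below are therefore given by file number, with the label beside them, and a group name stands for a label or a word and not for a knockdown shown to have taken place.

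Rnf2 was at 30.6, 20.4, 26.8, 28.8, 19.4 and 28.2 RPKM in files 1 to 6. Its lowest levels were those of files 2 and 5, labelled control 2 and Dzip3-KD 1, which both carry the word Ring1BKD. Dzip3 was at 2.24, 2.68, 1.18, 1.89, 1.70 and 1.31 RPKM, and its lowest levels were those of files 3 and 6, labelled Ring1B-KD 1 and Dzip3-KD 2, which both carry the word Dzip3KD. Pearson correlation of log2(RPKM + 1) between libraries was 0.960 to 0.974 within files 1 to 3 and within files 4 to 6, and 0.940 to 0.957 across these sets. Depth, recovered from the values, was 3015349 to 3583612 mapped reads per library, at which 3 reads on a 2 kb transcript amount to 0.419 to 0.497 RPKM. Of the ES cell markers, Dppa5a, Pou5f1 and Nanog had the highest mean levels at 510 (385 to 592), 327 (248 to 433) and 245 (194 to 291) RPKM. The primitive endoderm, trophectoderm and fibroblast markers were low, with summed levels over each list of at most 2.88, 1.56 and 5.46 RPKM in any library.

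As background, ES cells secrete Fgf4, which acts through its receptors, Ras, Raf and MEK to activate ERK. Active ERK phosphorylates transcription factors that switch on immediate early genes within minutes, and it also induces its own inhibitors. Dusp6 removes the activating phosphates from ERK in the cytoplasm, Dusp4 does so in the nucleus, sprouty proteins restrain the pathway upstream of ERK, and Etv4 and Etv5 carry FGF signals to transcription. ERK activity draws mES cells out of self-renewal, which is the reason for adding a MEK inhibitor to the medium.

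The promoters of Dusp6, Fos and Spry2 are shown because ETS factors, among the nuclear targets of ERK, bind DNA around a GGAA core. Each is the 250 bases before the RefSeq transcription start site (sequences of the GRCm38.p6 tables of RefSeq, placed on NCBIM37, which is mm9, by exact match), written 5′ to 3′ on the strand of the gene. Capitals mark CGGAA on either strand, so that TTCCG is the same motif read on the other strand. The motif occurred in 25.2% of 32851 promoter windows of this length. Windows of Egr1 and Spry4 were left out by choice before matching, so their promoters were not examined for the motif. RefSeq windows were examined for 5 of the 10 genes, Dusp6, Fos, Spry2, Etv5 and Ier3, and the motif was found in those of Dusp6 and Fos.

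Dusp6, chr10:98725615-98725864, plus strand: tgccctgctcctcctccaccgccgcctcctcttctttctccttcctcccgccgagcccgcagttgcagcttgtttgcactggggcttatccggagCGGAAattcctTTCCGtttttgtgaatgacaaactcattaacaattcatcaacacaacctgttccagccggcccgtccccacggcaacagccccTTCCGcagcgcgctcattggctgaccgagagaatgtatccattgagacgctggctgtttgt

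Fos, chr12:86814590-86814839, plus strand: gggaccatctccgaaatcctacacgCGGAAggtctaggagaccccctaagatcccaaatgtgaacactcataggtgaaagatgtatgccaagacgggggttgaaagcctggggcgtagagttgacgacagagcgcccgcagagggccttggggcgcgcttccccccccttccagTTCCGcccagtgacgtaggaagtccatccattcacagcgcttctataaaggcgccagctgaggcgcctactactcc

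Spry2, chr14:106296037-106296286, minus strand: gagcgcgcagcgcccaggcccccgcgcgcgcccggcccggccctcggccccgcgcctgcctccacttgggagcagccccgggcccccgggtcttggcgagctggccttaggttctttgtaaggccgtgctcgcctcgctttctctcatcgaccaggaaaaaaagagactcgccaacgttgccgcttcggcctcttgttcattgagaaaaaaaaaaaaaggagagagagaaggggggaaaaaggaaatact

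The Dusp6 window holds the motif 3 times, starting 155, 144 and 61 bases before the start site, and the Fos window holds it 2 times, 225 and 76 bases before it. The Spry2, Etv5 and Ier3 windows do not hold these letters. A match of 5 letters is a description of the sequence and not a shown binding site.

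The first question was how high these genes stood with MEK inhibited. No library without PD0325901 was analysed here, so the levels cannot be set against uninhibited cells and are given as a description. Etv5 was the highest of the 10 at 39.6 to 62.1 RPKM, in the 97.9th percentile of all listed genes on average over the libraries. Spry2 followed at 13.5 to 31.0 RPKM (mean percentile 91.7), then Etv4 at 4.46 to 16.9 (79.0) and Dusp6 at 3.06 to 10.8 (73.9). Feedback genes of the pathway were thus found both near the top and in the lower part of the range. Spry2 was above Etv4 in each of the 6 libraries, whereas Etv4 and Dusp6 changed places in file 6. Myc, at 0.814 to 4.84 RPKM, and Ier3, at 1.83 to 3.05, overlapped (mean percentiles 49.9 and 52.6). The lowest were Spry4 at 0.0667 to 2.38, Fos at 0.439 to 1.25, Dusp4 at 0.125 to 1.23 and Egr1 at 0.0908 to 0.868 RPKM, whose ranges overlapped one another. These 4 genes rested on 1 to 33 reads per library, and Egr1 on at most 9. The classical immediate early genes Fos and Egr1 were therefore close to the level that 3 reads give.

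**Figure D1:**
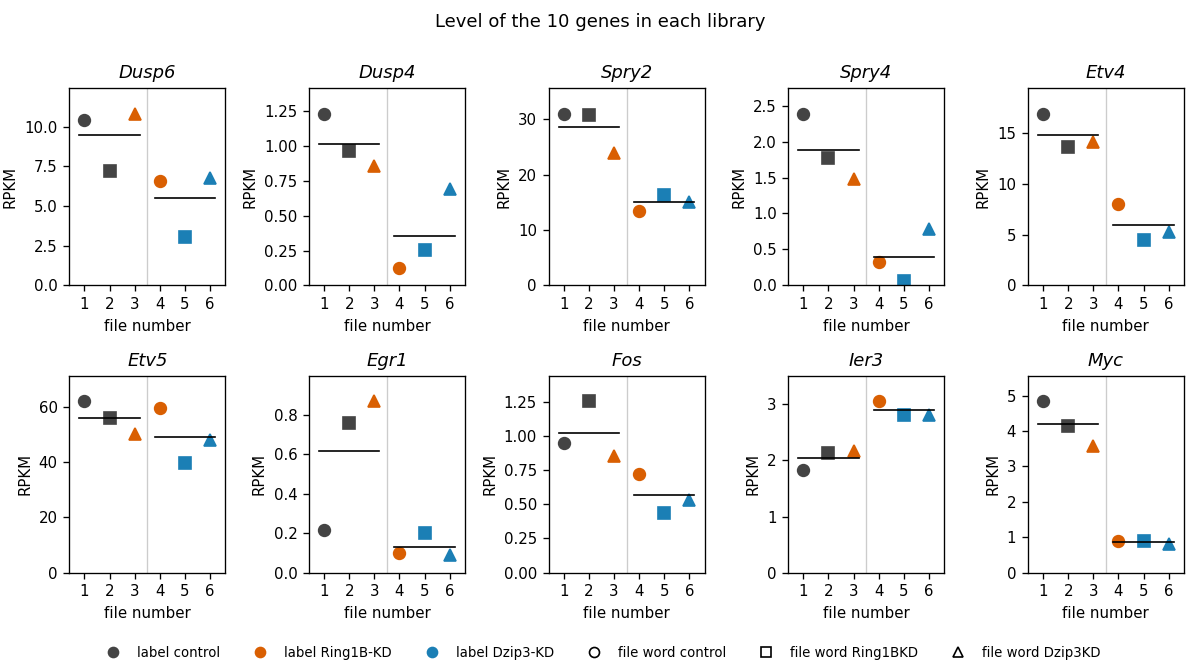
Level in RPKM of each of the 10 genes by file number; colour gives the sample label, marker shape the condition word in the file name, and horizontal lines the mean of files 1 to 3 and of files 4 to 6. A total of 8 genes sit lower in every one of files 4 to 6 than in any of files 1 to 3, Ier3 sits higher, and Etv5 overlaps.

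Files 4 to 6 were then compared with files 1 to 3, the split along which the libraries stood apart. The first set holds both controls and 1 library labelled Ring1B-KD, the second holds the other Ring1B-KD library and both libraries labelled Dzip3-KD, and each set has all 3 words once. Of the 10 genes, 8 were lower in RPKM in each of files 4 to 6 than in any of files 1 to 3, where 11.8% of all listed genes and 15.5% of tested genes were lower without overlap. For some of the 8 the gap was narrow in reads. Egr1 had 2 reads in both file 1 and file 5, which only depth set apart. The lowest count of the first set and the highest of the second were 7 and 6 for Dusp4, 6 and 5 for Fos, and 69 and 68 for Dusp6. The limma test at an adjusted p under 0.05 called 638 of 11538 genes (5.53%), a count that dropped to between 67 (without Dzip3-KD 2) and 359 (without Dzip3-KD 1) when 1 library was left out, so that the shares called depend on all 6 libraries. Of the 9 tested genes, 4 passed and fell, Myc, Etv4, Spry2 and Spry4, where 2.44% of all tested genes fell. None of the 9 passed the test upwards, where 3.09% of tested genes did. The median fitted difference of the 9 genes was -0.73 on the log2(RPKM + 1) scale, beside -0.04 over all genes tested. On this scale 1 RPKM is added before the logarithm, which understates the change of low genes. The study describes its samples as biological duplicates, while the labels do not say how cultures and library preparations were arranged, so p-values measure the spread between these samples, which may in part be technical. In bulk RNA, fewer cells with a gene on and less of its RNA per cell cannot be told apart.

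Myc, a transcription factor that promotes growth and proliferation and in ES cells is also induced by LIF, had a fitted difference of -1.47 between the sets, the widest of the 9 on the log2(RPKM + 1) scale. With a pseudocount of 0.1 RPKM or with voom the fitted difference of Spry4 was wider, at -2.29 and -2.55 against -2.14 and -2.19 for Myc. Myc lies at chr15:61816946-61821929 on the plus strand (mm9). Its level was 4.84, 4.13 and 3.58 RPKM in files 1 to 3 and 0.883, 0.893 and 0.814 RPKM in files 4 to 6, from 29 to 35 and from 7 reads per library. All 3 libraries of the second set were well under the lowest of the first. At 7 reads each, counting error is wider than the spread among them. The set means were 4.18 ± 0.629 and 0.863 ± 0.0429 RPKM (SD, n = 3), 4.85-fold apart, and the fitted log2 difference had an SE of 0.16 and a limma adjusted p of 0.00241. Myc kept this call in all 13 settings tried, among them leaving out each library in turn.

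The sprouty genes fell together. Spry2 (chr14:106291166-106296036, minus strand) was at 31.0, 30.7 and 24.0 RPKM in files 1 to 3 and at 13.5, 16.4 and 15.1 RPKM in files 4 to 6. With 93 to 220 reads per library it was among the better measured of the 10, and the sets were clearly apart. The means of 28.6 ± 3.96 and 15.0 ± 1.48 RPKM (SD, n = 3) differed 1.90-fold, with a log2 difference of -0.88 (SE 0.14, limma adjusted p 0.0124). This call was lost without Ring1B-KD 2 (adjusted p 0.0595) and without Dzip3-KD 2 (adjusted p 0.0556). Spry4 was much lower, at 2.38, 1.78 and 1.49 RPKM against 0.330, 0.0667 and 0.790 RPKM, or 33, 28 and 23 reads against 5, 1 and 13. Here the sets did not overlap either, and file 5, labelled Dzip3-KD 1, held a single read. The fitted log2 difference was -1.07 (SE 0.23, limma adjusted p 0.0285), and the means differed 4.76-fold. This call was lost when any 1 of the 6 libraries was left out, with adjusted p from 0.0512 to 0.0941, while the direction stayed.

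The ETS factors differed from each other. Etv4 (chr11:101631056-101646685, minus strand) was at 16.9, 13.6 and 14.1 RPKM in files 1 to 3 and at 8.03, 4.46 and 5.26 RPKM in files 4 to 6. It was highest in the library labelled Ring1B-KD 2 among the second set, and still below all of the first. Means of 14.9 ± 1.78 and 5.91 ± 1.88 RPKM (SD, n = 3) lay 2.51-fold apart, with a log2 difference of -1.23 (SE 0.19, limma adjusted p 0.0119), a call lost without Dzip3-KD 2 (adjusted p 0.0556). Etv5 (chr16:22381382-22439792, minus strand) was at 62.1, 56.1 and 50.3 RPKM against 59.8, 39.6 and 48.2 RPKM. Its sets overlapped, since file 4 was above files 2 and 3. The log2 difference of -0.20 (SE 0.16, limma adjusted p 0.491) did not pass, although Etv5 had the most reads of the 10, 494 to 756 per library. The difference between the responses of Etv4 and Etv5 was not tested.

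Among the phosphatases, Dusp6 (chr10:98725865-98730122, plus strand) was at 10.4, 7.19 and 10.8 RPKM in files 1 to 3 and at 6.60, 3.06 and 6.78 RPKM in files 4 to 6. The sets did not overlap, but files 2 and 5, which share the word Ring1BKD, were the lowest of their sets, and the gap between file 2 and file 6 was small. The log2 difference was -0.73 (SE 0.26, limma adjusted p 0.125). It passed when the word was added as a covariate, an alternative chosen after seeing the data (adjusted p 0.0252), and with voom on recovered reads (adjusted p 0.0412). Dusp4 was at 1.23, 0.961 and 0.855 RPKM against 0.125, 0.252 and 0.690 RPKM, which rests on 24 reads in the first set and 9 in the second. Its sets did not overlap, and its log2 difference of -0.59 (SE 0.21, limma adjusted p 0.125) did not pass.

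The immediate early genes did not move as a block. Fos, a subunit of AP-1, was at 0.951, 1.25 and 0.850 RPKM against 0.723, 0.439 and 0.533 RPKM, from 21 reads in the first set and 12 in the second, with a log2 difference of -0.37 (SE 0.18, limma adjusted p 0.252). Egr1, a zinc finger factor, was at 0.216, 0.759 and 0.868 RPKM against 0.0985, 0.199 and 0.0908 RPKM, from 19 reads against 4. Fitted without the limit on low values, its log2 difference was -0.49 (limma adjusted p 0.197). Neither gene had sets that overlapped in RPKM. In Egr1 the library labelled control 1 stood close to the second set. It had 2 reads, as did Dzip3-KD 1, so that only depth set these libraries apart. Ier3, a stress-inducible gene that is also a substrate of ERK, went the other way, at 1.83, 2.14 and 2.18 RPKM against 3.05, 2.81 and 2.82 RPKM, from 6 to 8 and 10 to 11 reads per library. Every library of the second set was above every library of the first, as for 10.7% of all listed genes, and the log2 difference of 0.35 (SE 0.15, limma adjusted p 0.188) did not pass. An exact permutation test over the 6 libraries gave p = 0.1 (two-sided), the smallest that 3 against 3 allows, for each of the 10 genes except Etv5, for which p was 0.4. Sets that do not overlap always give this smallest value, so the test adds nothing to the levels above.

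Levels of the 9 tested genes moved together to different degrees over the 6 libraries. Pearson correlation of a gene's log2(RPKM + 1) with the mean of the others was highest for Spry4 and Etv4, at 0.95 each, lowest among positive values for Etv5, at 0.67, and -0.91 for Ier3. With 6 libraries in 2 sets these values mostly restate the set difference. Among 5506 other genes averaging 5 RPKM or more, the 5 whose pattern was most like the mean z-score of the 9 genes were Zfp518b (r = 0.999), Cdc42ep4 and Phf23 (0.997 each), and G3bp2 and Dnaaf5 (0.995 each), over the same 6 libraries. As the highest values of a search over so many genes and so few libraries, they are a description only. The mean z-score was 0.76, 0.60 and 0.37 in files 1 to 3 and -0.32, -1.01 and -0.40 in files 4 to 6. The library labelled Dzip3-KD 1 was thus the lowest for the genes as a group. Its RPKM summed over all listed genes was also the lowest, at 126356 against 133475 to 140481 in the other libraries.

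The rest of the pathway was read from lists of genes with known roles. Of 12 listed further feedback genes (other sprouty, Spred and Dusp genes, Il17rd, Etv1 and Phlda1), 11 were tested. Of these, 1 passed the test and fell, beside 2.44% of all tested genes, and the median log2 difference was -0.46. The gene that passed was Phlda1, which is induced by ERK in many cells. It was at 2.21, 2.69 and 3.04 RPKM in files 1 to 3 and at 0.775, 1.10 and 1.00 RPKM in files 4 to 6 (log2 difference -0.89, SE 0.17, limma adjusted p 0.0193). Its sets did not overlap, and its call was lost without control 2, Ring1B-KD 1, Ring1B-KD 2 or Dzip3-KD 2 (adjusted p up to 0.0743). In all, 7 of the 11 were lower at an unadjusted p under 0.05, beside 12.2% of all tested genes. Among them, 3 chosen after their values were seen are Dusp9, an ERK phosphatase (log2 difference -0.89, limma adjusted p 0.0591), Spred2, an inhibitor of Raf activation (-0.63, adjusted p 0.0779), and the FGF antagonist Il17rd (-0.60, adjusted p 0.0818). Dusp1, a phosphatase of several MAP kinases, had a difference of -0.01.

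Of 29 listed genes on the route from ligand and receptor to ERK and its nuclear targets, 27 were tested, with a median log2 difference of -0.06. Of these, 1 rose and 1 fell, beside 3.09% and 2.44% of all tested genes, so that 1 of 27 each way was close to the share of all genes. Fgf4, the ligand that mES cells secrete, was at 48.5, 37.2 and 32.0 RPKM in files 1 to 3 and at 101, 83.3 and 96.6 RPKM in files 4 to 6. All 3 libraries of the second set were well above the first, 2.39-fold in the mean (log2 difference 1.25, SE 0.16, limma adjusted p 0.00527), opposite in direction to the feedback genes. Map2k2, which encodes MEK2, one of the kinases that PD0325901 inhibits, was at 11.7, 14.1 and 11.6 RPKM against 8.42, 7.09 and 8.82 RPKM. Its sets were apart by less than those of Fgf4, and its log2 difference of -0.57 (SE 0.14, limma adjusted p 0.0457) no longer passed when any 1 library was left out (adjusted p 0.0693 to 0.127).

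Of 18 further immediate early genes, 12 were tested and none passed in either direction at an adjusted p under 0.05 in limma, with 4 at an unadjusted p under 0.05, 3 lower and 1 higher, beside 12.2% and 11% of all tested genes. Their median log2 difference was -0.04, equal to that of all genes. The 3 with the highest mean level were the survival gene Mcl1 at 67.6 RPKM, Ier2 at 37.2 and the antiproliferative gene Btg2 at 18.3, far above Fos and Egr1. None of 9 Myc family and partner genes passed either in limma, with 3 higher at an unadjusted p under 0.05, beside 11% of all tested genes. Max, the partner of Myc, had the highest mean level of them at 24.9 RPKM, followed by Mycn at 23.7 and Mga at 14.9. Mycn, the paralog of Myc, was at 20.8, 17.0 and 19.3 RPKM in files 1 to 3 and at 24.8, 21.2 and 38.8 RPKM in files 4 to 6. It was higher without overlap but did not pass (log2 difference 0.51, SE 0.20, limma adjusted p 0.168). Per length, Mycn was thus above Myc in every library.

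**Figure D2:**
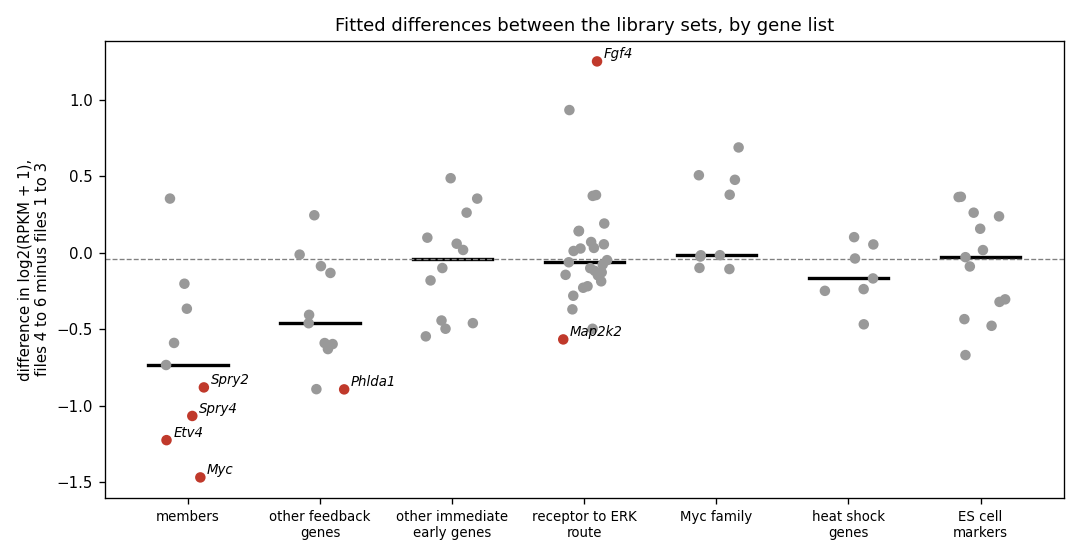
Fitted difference in log2(RPKM + 1), files 4 to 6 minus files 1 to 3, for the tested genes of each list; points are genes, red points passed the limma test at an adjusted p under 0.05, short lines are list medians, and the dashed line is the median of all tested genes. The 10 genes (9 tested) and the other feedback genes have medians of -0.73 and -0.46, and those of the other 5 lists plotted run from -0.17 to -0.02.

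Among markers of the cell state, Otx2 and Dnmt3b changed along the same split. Of 13 markers of naive ES cells, 0 passed the limma test, with 4 lower and 2 higher at an unadjusted p under 0.05, beside 12.2% and 11% of all tested genes. Of 7 markers of primed cells, 5 were tested and 2 passed, in opposite directions, beside 5.53% of all tested genes. Otx2, a transcription factor of the early epiblast, was at 0.991, 0.871 and 1.33 RPKM in files 1 to 3 and at 9.72, 5.72 and 12.1 RPKM in files 4 to 6, an 8.63-fold rise (log2 difference 2.25, SE 0.24, limma adjusted p 0.00228). Dnmt3b, a DNA methyltransferase, was at 8.97, 11.1 and 8.84 RPKM against 3.43, 3.25 and 5.09 RPKM (log2 difference -1.12, SE 0.17, limma adjusted p 0.0119), a call lost without Ring1B-KD 2 (adjusted p 0.0569). Neither gene had overlapping sets. Fgf5 and T, defining markers of primed and mesodermal cells, had at most 0.367 and 0.324 RPKM in any library. The summed level of the primed list was 14.3 to 16.8 RPKM in files 1 to 3 and 13.0 to 22.0 RPKM in files 4 to 6.

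Markers of other cell types were compared across the same sets. The summed level of the 7 primitive endoderm markers was 1.75 to 2.88 RPKM in files 1 to 3 and 1.09 to 1.38 RPKM in files 4 to 6, and 5 of them were under 0.5 RPKM in all 6 libraries. Dab2, Gata4 and Pdgfra were the highest of them, with means of 0.830, 0.354 and 0.245 RPKM. Dab2 was at 0.788, 1.39 and 1.60 RPKM in files 1 to 3 and at 0.196, 0.529 and 0.482 RPKM in files 4 to 6 (log2 difference -0.68, SE 0.21, limma adjusted p 0.0881). Dab2, Gata6 and Pdgfra, 3 of the 7, were lower in files 4 to 6 without overlap, beside 11.8% of all listed genes. Gata6 and Pdgfra averaged under 0.5 RPKM and were not tested, and they had at most 4 and 9 reads in any library. The 4 listed trophectoderm markers summed to 0.825 to 1.56 and 0.282 to 1.50 RPKM, with Gata3, Cdx2 and Krt7 at means of 0.614, 0.217 and 0.155 RPKM, and Cdx2 was listed at 0 in all of files 4 to 6. The 5 listed fibroblast markers summed to 2.61 to 5.46 and 3.27 to 3.64 RPKM, with Thy1, Twist1 and Col1a1 at means of 1.91, 1.50 and 0.141 RPKM. Of the 7 heat shock genes, 0 passed the limma test and 1 was lower at an unadjusted p under 0.05, beside 12.2% of all tested genes. Among them, Hsp90aa1, Hspd1 and Hspe1 had the highest means at 375, 78.7 and 50.1 RPKM. The part of cell state or other cells in the fall of the feedback genes was not tested.

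**Figure D3:**
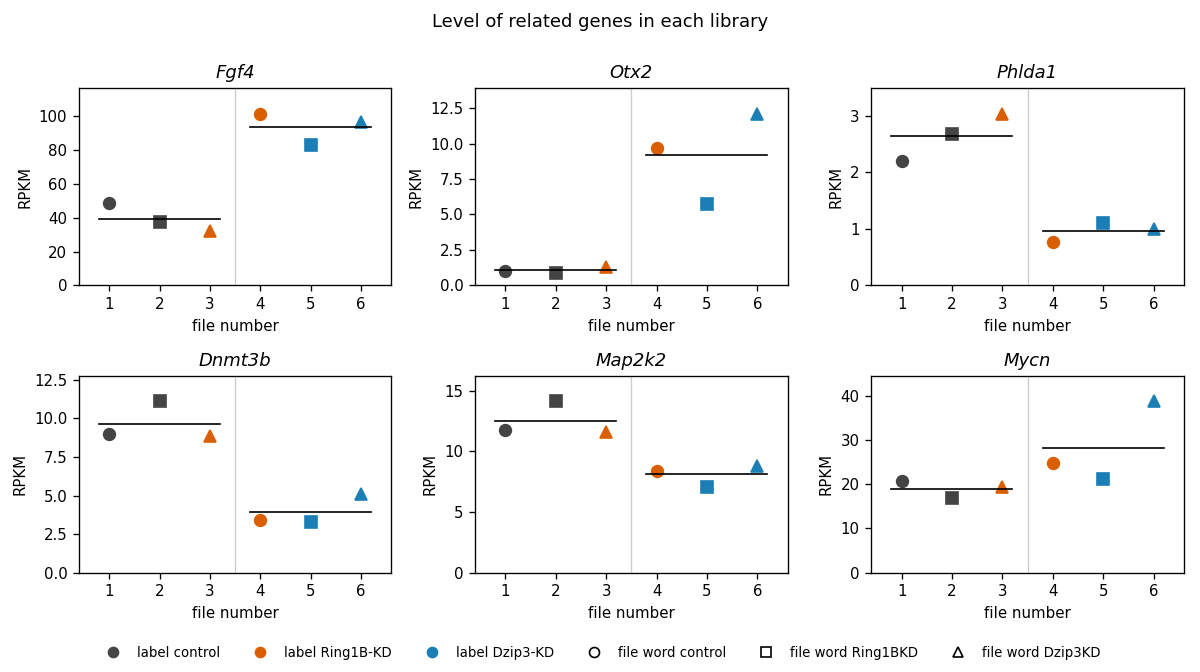
Level in RPKM of 6 related genes by file number, with colour for the sample label, marker shape for the condition word and lines for the set means. Fgf4 and Otx2 are higher in files 4 to 6, at 83.3 to 101 and 5.72 to 12.1 RPKM, Phlda1, Dnmt3b and Map2k2 are lower, and Mycn is highest in file 6.

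The libraries labelled as knockdowns were also compared with those labelled control. By label Rnf2 was not lower in Ring1B-KD, with means of 27.8 ± 1.38 RPKM against 25.5 ± 7.17 RPKM in control (SD, n = 2) and a log2 difference of 0.15 (limma adjusted p 0.965). Dzip3 had log2 differences from control of -0.47 in Dzip3-KD (limma adjusted p 0.458) and -0.46 in Ring1B-KD (adjusted p 0.902). These comparisons therefore describe the labels and do not measure the loss of either ligase. Both control libraries lie in files 1 to 3 and both Dzip3-KD libraries in files 4 to 6, so that label and set cannot be told apart there, and the Ring1B-KD libraries lie 1 in each set. Both comparisons also share the control libraries. For Dzip3-KD against control, limma called 0 of 11538 genes (0% of tested genes) at an adjusted p under 0.05 and 1411 (12.2%) at an unadjusted p under 0.05. Of the 9 genes, 6 were lower at an unadjusted p under 0.05, beside 6.99% of all tested genes. The log2 differences were -1.47 for Etv4 (SE 0.26, limma adjusted p 0.254), -1.56 for Myc (SE 0.37, adjusted p 0.300), -0.93 for Spry2 (SE 0.25, adjusted p 0.302), -1.15 for Spry4 (SE 0.36, adjusted p 0.319), -0.78 for Dusp6 (SE 0.34, adjusted p 0.409) and -0.43 for Etv5 (SE 0.18, adjusted p 0.403). With the 4 control and Dzip3-KD libraries compared alone, Etv4 passed in limma (adjusted p 0.0461) and Myc was at 0.0508. Leaving out 1 Ring1B-KD library is nearly the same fit, since the other then has its own term and adds nothing to the spread. Such fits are not separate results. Neither gene passed when a control or Dzip3-KD library was left out. With each library left out in turn, Etv4 ranged from -1.61 to -1.32 and Myc from -1.66 to -1.47. The other 3 were Fos at -0.50, Dusp4 at -0.52 and Ier3 at 0.36. With the set added as a block, Etv4 and Etv5 were at -0.73 and -0.67. Myc, Spry2 and Spry4 were at -0.28, -0.14 and -0.25, and none of these 5 passed in limma (smallest adjusted p 0.829). This fit takes the set difference from Ring1B-KD 2 minus Ring1B-KD 1 alone and subtracts it. It therefore assumes that those libraries differ only by set, and it does not separate label from set.

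For Ring1B-KD against control, limma likewise called 0 genes (0% of tested genes), with 589 (5.1%) at an unadjusted p under 0.05. A pair of the 9 genes, Spry2 and Myc, was lower at an unadjusted p under 0.05, beside 2.88% of all tested genes. Myc had a log2 difference of -0.90 (SE 0.37, limma adjusted p 0.902) and Spry2 one of -0.74 (SE 0.25, adjusted p 0.902). In both genes the library labelled Ring1B-KD 1 was nearer to the controls and Ring1B-KD 2 was at the level of the Dzip3-KD libraries. Differences of the other 7 ran from -0.75 for Spry4 to 0.27 for Ier3. With the set as a block, Myc was at -0.26 and Spry2 at -0.35, and Dusp6 changed sign, from -0.03 to 0.29. Both control libraries lie in the first set, so these values set Ring1B-KD 1 alone against them. They equal the differences without Ring1B-KD 2 and are not separate results.

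The condition words were compared within the sets, 1 library per word and set, with the set as a block. For the word Ring1BKD against control (files 2 and 5, labelled control 2 and Dzip3-KD 1, against files 1 and 4, labelled control 1 and Ring1B-KD 2), 48 genes passed, all of them higher (0.416% of tested genes), and 0 of the 9 genes were among them. Rnf2 itself had a log2 difference of -0.55 (SE 0.13, limma adjusted p 0.232), and the median over all tested genes was -0.08. At an unadjusted p under 0.05, where 8.31% of tested genes differed and 5.2% were lower, 3 of the 9 genes were lower. Dusp6 was lower by 0.48 in the first set and by 0.90 in the second on the log2 scale (fitted -0.69, SE 0.18, limma adjusted p 0.286). Etv4 had a fitted difference of -0.51 (SE 0.17, limma adjusted p 0.439) and Etv5 of -0.37 (SE 0.15, limma adjusted p 0.579), both lower in both sets. Spry4 was also lower in both, so that 4 of the 10 genes were, beside 40.6% of tested genes, while Egr1 was higher in both, beside 18.5% of tested genes, and 5 genes differed in sign. A share of 4 in 10 was close to that of all genes.

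The heat shock genes Hspa1a and Hspa1b, chosen after their values were seen, had their highest levels with the same word. Of the 7 heat shock genes, 4 had a fitted difference below 0 for the word Ring1BKD, and the median was -0.06. At an unadjusted p under 0.05 in limma, 2 were higher, this pair, and 1 was lower, Hspe1 (-0.39), beside 8.31% of tested genes in either direction. Hspa1a, a stress-induced chaperone, was at 1.66, 4.06, 1.91, 1.51, 8.64 and 0.997 RPKM in files 1 to 6, highest in files 2 and 5. The log2 difference of Hspa1a for the word Ring1BKD was 1.43 (limma adjusted p 0.197). Its near-identical neighbour Hspa1b was at 2.36, 5.71, 3.06, 2.15, 8.61 and 2.38 RPKM, with a log2 difference of 1.30 (limma adjusted p 0.0683) for the word Ring1BKD, and reads of this pair can be hard to assign to either gene. Their part in the lower Dusp6, Etv4 and Etv5 of files 2 and 5 was not tested.

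For the word Dzip3KD against control (files 3 and 6, labelled Ring1B-KD 1 and Dzip3-KD 2, against the same files 1 and 4), limma called 0 genes (0% of tested genes) and 752 (6.52%) had an unadjusted p under 0.05. Dzip3 had a log2 difference of -0.45 (SE 0.21, limma adjusted p 0.754). Of the 9 genes, 1, Etv4, was lower at an unadjusted p under 0.05 (-0.39, SE 0.17, limma adjusted p 0.754), beside 3.34% of all tested genes. Etv4, Etv5, Fos and Myc, 4 of the 10, were lower in both sets, beside 29.5% of tested genes, and Dusp6 was higher in both, beside 22.3%. Dusp6, which was low in the files named Ring1BKD, was at 10.8 and 6.78 RPKM in the files named Dzip3KD and at 10.4 and 6.60 RPKM in those named control (fitted log2 difference 0.04, SE 0.18). Within-set differences of Myc were -0.35 and -0.05, smaller than its difference of -1.47 between the sets. Both words share the control files, and the difference between them was not tested.

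**Figure D4:**
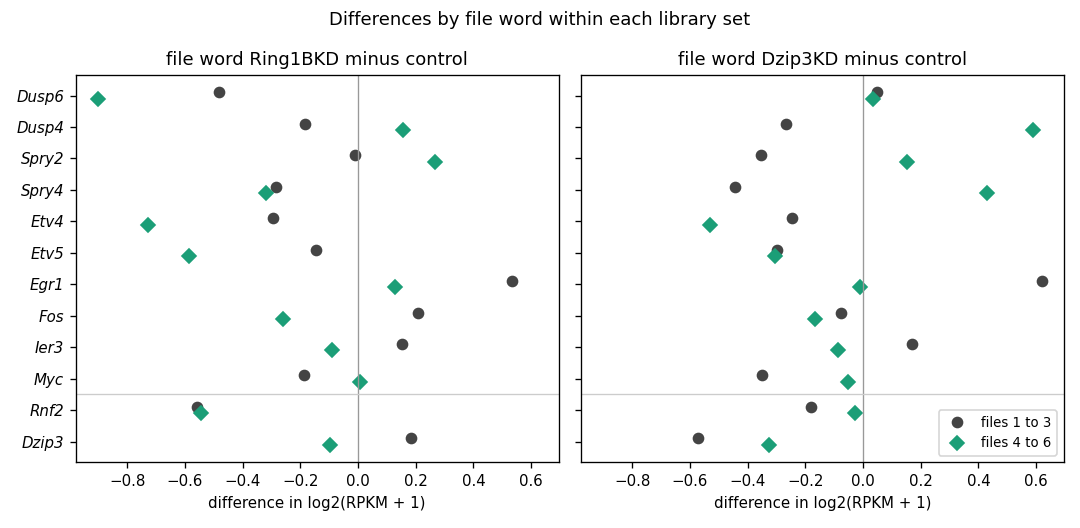
Difference in log2(RPKM + 1) of the library named Ring1BKD (left) or Dzip3KD (right) from the library named control, within files 1 to 3 (circles) and within files 4 to 6 (diamonds), for the 10 genes and, under the line, the targeted genes. Dusp6, Spry4, Etv4 and Etv5 lie left of 0 in both sets on the left, and Etv4, Etv5, Fos and Myc do on the right.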

How the data were processed

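Per the labels and the methods of the study, total RNA of siRNA-transfected E14 cells was made into TruSeq Stranded mRNA libraries, sequenced on a MiSeq and aligned to mm9 with the Illumina Analysis Pipeline, allowing 1 mismatch. Reads assigned uniquely to a gene were counted, and the authors deposited RPKM values, 1 list per library, without pooling. The annotation is not given in the sources used here. RPKM does not correct for a change in RNA composition.

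Whole reads were recovered as multiples of the value of 1 read for 15512 of 16668 genes (93.1%), including all 10 members. In 2000 genes sampled from those above 0 in all 6 libraries the share was 92.6%, and 0.25% after random factors of 5% SD. Absolute depth was set from annotated transcript lengths. Of the recovered lengths, 21.3% equalled an annotated one, beside 0.496% with 7 bases added. Floors and read numbers cover counting error only.

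limma 3.58.1 in R 4.3.3, with the variance trend, was fitted to log2(RPKM + 1) for the 11538 genes averaging 0.5 RPKM or more, with Benjamini-Hochberg adjustment and a threshold of 0.05. All 6 libraries entered each fit. Groups came from the labels, and the comparisons by file number and file word were made beside them. The fit was tried on simulated reads for the comparison of file sets and for the word Ring1BKD only. The fits by label were not simulated, and the simulated word comparison held no difference between the sets. Exact tests and correlations used scipy 1.17.1. Alternatives were another pseudocount, no filter, other scalings, voom on recovered reads, blocks and leaving out each library.

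Named genes were the 10 members, the targeted genes, the genes of each list that passed a test or else its 3 highest, and the 5 genes of the most similar pattern. Members and lists were chosen with earlier results of these data known. No replicate numbers shared a stated culture or day.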

Additional observations from a re-analysis of the deposited data

Results flagged for a closer look

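For 5 genes the library named Ring1BKD differed from the library named control in opposite directions in the file sets. The difference between the sets, files 4 to 6 minus files 1 to 3, was 0.34 for Dusp4, 0.28 for Spry2, -0.47 for Fos, -0.24 for Ier3 and 0.19 for Myc on the log2(RPKM + 1) scale. For the word Dzip3KD it was 0.85 for Dusp4, 0.51 for Spry2, 0.87 for Spry4, -0.63 for Egr1 and -0.26 for Ier3. Each of these values rests on 1 library per word and set, and the difference was not tested. The widest, Spry4 and Dusp4 under the word Dzip3KD, rest on file 6, labelled Dzip3-KD 2, with 13 and 6 reads, against file 4, labelled Ring1B-KD 2, with 5 and 1 reads.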

How the results depend on the processing

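In the comparison of the file sets, the direction of the 9 tested genes stayed in all 13 settings, and the calls that were lost are given beside each gene. The number of genes called, 638, became 285 without a filter on low values, 1086 with voom on recovered reads and 67 to 359 when a library was left out. It was 67 without Dzip3-KD 2, 103 without Ring1B-KD 2, 209 without control 1, 330 without control 2, 334 without Ring1B-KD 1 and 359 without Dzip3-KD 1. With a pseudocount of 0.1 RPKM the adjusted p of Spry4 was 0.0565, and without the filter it was 0.0720. Without the filter Map2k2 and Phlda1 also lost their calls (adjusted p 0.0756 and 0.0515), as did Map2k2 with the word as a covariate (0.0541). By label, Dzip3-KD against control gave 0 to 27 genes when a library was left out, 27 without Ring1B-KD 2 and 25 without Ring1B-KD 1, and 24 with only the 4 libraries compared. The fit with the replicate number as a block called 1 gene for Dzip3-KD and 0 for Ring1B-KD against control. Same-numbered libraries had correlations of deviations of -0.04, -0.24 and 0.04, so the numbers do not pair the libraries, and crossing the numbers of Dzip3-KD, an alternative chosen after seeing the data, gave 0 genes. For the word Ring1BKD, the 48 genes became 21 with a pseudocount of 0.1 RPKM, 0 without the filter, 79 with voom, 0 without the set block and 3 to 61 when a library was left out, 3 without Dzip3-KD 1. For the word Dzip3KD, voom gave 4 genes and leaving out a library 0 to 4, with 4 without Ring1B-KD 2 and 1 without Dzip3-KD 2.

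Differences that changed sign were small, had not passed in limma, and their cause was not tested. With the set as a block, Dusp6 was at 0.29 for Ring1B-KD and Dusp4 at 0.20 for Dzip3-KD. The first rests on Ring1B-KD 1 alone against the controls. The second takes the set from the difference between the Ring1B-KD libraries alone. For the word Ring1BKD, Dusp4 was at 0.16 with a pseudocount of 0.1 RPKM, 0.023 with scaling to the 75th percentile and 0.0085 with voom, and Fos was at 0.019 with that scaling. For the word Dzip3KD, Spry4 was at 0.20 with the lower pseudocount and 0.019 with that scaling. When a library was left out, by label Ring1B-KD, Dusp6 ranged from -0.35 to 0.29 and Etv5 from -0.23 to 0.020. For the word Ring1BKD the ranges were -0.31 to 0.28 for Dusp4, -0.069 to 0.32 for Spry2, -0.24 to 0.19 for Fos, -0.093 to 0.16 for Ier3 and -0.21 to 0.033 for Myc. For the word Dzip3KD they were -0.068 to 0.15 for Dusp6, -0.18 to 0.50 for Dusp4, -0.30 to 0.10 for Spry2, -0.45 to 0.44 for Spry4, -0.26 to 0.017 for Fos and -0.084 to 0.17 for Ier3. Depth limits Dusp4, Spry4, Egr1, Fos and Ier3 most, with 1 to 33 reads per library.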
